A study of Mus musculus with 8 samples.

Results

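Steroid hormones act through ligand-activated transcription factors, and skin is one of the tissues that both responds to them and converts them. The genes described here are 7 such transcripts, fixed by symbol. Esr1 and Esr2 encode the alpha and beta estrogen receptors, and Pgr encodes the progesterone receptor. Greb1 is an estrogen-induced gene whose product binds the alpha receptor, as known from human breast cancer cells. Srd5a1 encodes a steroid reductase that turns testosterone into dihydrotestosterone, Srd5a3 encodes a relative that makes dolichol, the lipid carrier of N-glycan assembly, and Hsd17b11 encodes a lipid droplet dehydrogenase that oxidises the 17-hydroxyl group of steroids. All 7 symbols were found among 22609 in the count tables, 6 passed the filter on low counts (14790 genes did), and Esr2 did not.

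RNA from the paw of C57BL/6J mice, an inbred strain, was sequenced in 4 female and 4 male libraries. The labels give every mouse the same treatment, 0.1 µg prolactin (PRL) by a daily intraplantar injection over 12 days, so prolactin is shared by both sexes; paws given buffer alone were not analysed here. The labels give neither the age of the mice nor the estrous stage of the females, nor do they say whether each library was a separate animal, so p-values measure the spread between these libraries. In a study of prolactin, sex and lasting pain, the comparison asks how female and male paws differ in these transcripts under the hormone. Each library held 16753528 to 24993744 counts in genes, so that 1 read was worth 0.0386 to 0.0588 CPM (counts scaled to the library total, here with TMM factors).

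Paw libraries are mixtures. Keratinocyte markers averaged 10.32 to 10.81 log2 CPM in female and 10.53 to 10.87 in male libraries, and fibroblast markers 8.10 to 9.29 in females and 8.60 to 8.96 in males. All 17 keratinocyte and 12 fibroblast markers in the tables had counts in every library. Fast skeletal muscle markers varied far more, from 0.49 log2 CPM in female replicate 3 to 9.495 in female replicate 1, and from 4.83 to 9.90 in males. Log2 fold changes of female over male lay above 0 for 2 of 21 muscle, 4 of 17 keratinocyte and 3 of 12 fibroblast markers. Their medians were -0.47, -0.11 and -0.12, with 0 called by edgeR. Mast cell and hair follicle markers all had positive log2 fold changes of female over male (10 of 10 and 16 of 16), and 0 of them were called by edgeR. Sebaceous, Schwann cell, melanocyte and eccrine gland markers lay above 0 in 4 of 11, 5 of 10, 1 of 5 and 1 of 7 cases, with 0 called. Adipocyte, endothelial and macrophage markers did so in 6 of 10, 4 of 11 and 5 of 11 cases, with 0 called. At an unadjusted p under 0.05 there were 3 keratinocyte, 2 sebaceous, 1 mast cell and 1 eccrine marker, and DESeq2 called 1 keratinocyte and 2 sebaceous markers, all lower in females. In such tissue, fewer cells of a type and less RNA per cell cannot be told apart.

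Short stretches upstream of Esr2, Greb1 and Pgr are shown first, because these were the members whose mean levels were about 2-fold apart between the sexes. They come from RefSeq (GRCm38.p6; the counts themselves were made on mm9), where windows of 250 bases before annotated starts matched all 7 symbols. The search covered both strands for the palindromic estrogen response element GGTCANNNTGACC, for its 5-base core GGTCA, which the palindrome also contains, and for the GC box GGGCGG. The palindrome was in none of the 9 windows of the 7 genes, and in 0.0639% of all 32851 windows. The core was in both Greb1 windows and in the Esr2 window, and in 35.2% of all windows. GC boxes were in the windows of Pgr (1), Srd5a1 (3), Srd5a3 (2) and Hsd17b11 (1), and in 32.7% of all windows. Capitals mark the core in Esr2 and Greb1 and the GC box in Pgr, and every stretch is written on the gene's strand. The Esr2 window is chr12:76177260-76177509, minus strand. The Greb1 stretches are chr12:16800957-16800986 before the first start and chr12:16757416-16757445 and chr12:16757307-16757336 before the second, all minus strand. The Pgr stretch is chr9:8899774-8899803, plus strand. The window before the second Greb1 start overlaps an annotated exon, while the other windows with a printed stretch do not.
Esr2 upstream window: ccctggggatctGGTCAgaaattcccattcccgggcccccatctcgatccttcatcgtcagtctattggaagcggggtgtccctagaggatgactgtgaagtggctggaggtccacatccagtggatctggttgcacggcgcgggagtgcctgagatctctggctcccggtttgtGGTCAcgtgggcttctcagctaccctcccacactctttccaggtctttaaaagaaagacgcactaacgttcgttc
Greb1 before the first start: ccaagcaacaaaTGACCtctgtccccggag
Greb1 before the second start, distal: tcctaccaggcgGGTCActggggattgaat
Greb1 before the second start, proximal: gatttcaggaagGGTCActtatggtgggtg
Pgr: gggaggggctttGGGCGGgccttcctagag
These matches are letters found in a window. The files hold no binding or chromatin data that bear on them.

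Among the members, the enzymes were far more abundant than the receptor genes and Greb1. Per kilobase of exon (GENCODE M21 lengths, an approximation since the counting annotation is not given), Srd5a1 stood highest at 24.3 ± 4.26 CPM per kilobase and Srd5a3 next at 16.5 ± 1.17 (SD over the 8 libraries). Hsd17b11 followed at 8.81 ± 2.58. The ranges of Srd5a1 and Srd5a3 overlapped (17.9 to 30.3 and 14.5 to 18.1), while Hsd17b11 stayed below both, at 5.35 to 13.9. The receptor genes lay more than an order of magnitude lower: Pgr at 0.512 ± 0.251 and Esr1 at 0.460 ± 0.235 CPM per kilobase did not differ beyond their spread. Greb1 (0.151 ± 0.0903) and Esr2 (0.135 ± 0.0712) formed the lowest pair, again with overlapping ranges. Reads behind these values were few for these receptors and Greb1. All 8 libraries held 580 counts of Esr1, 599 of Pgr, 214 of Greb1 and 78 of Esr2, against 10582 of Srd5a1.

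**Figure D1:**
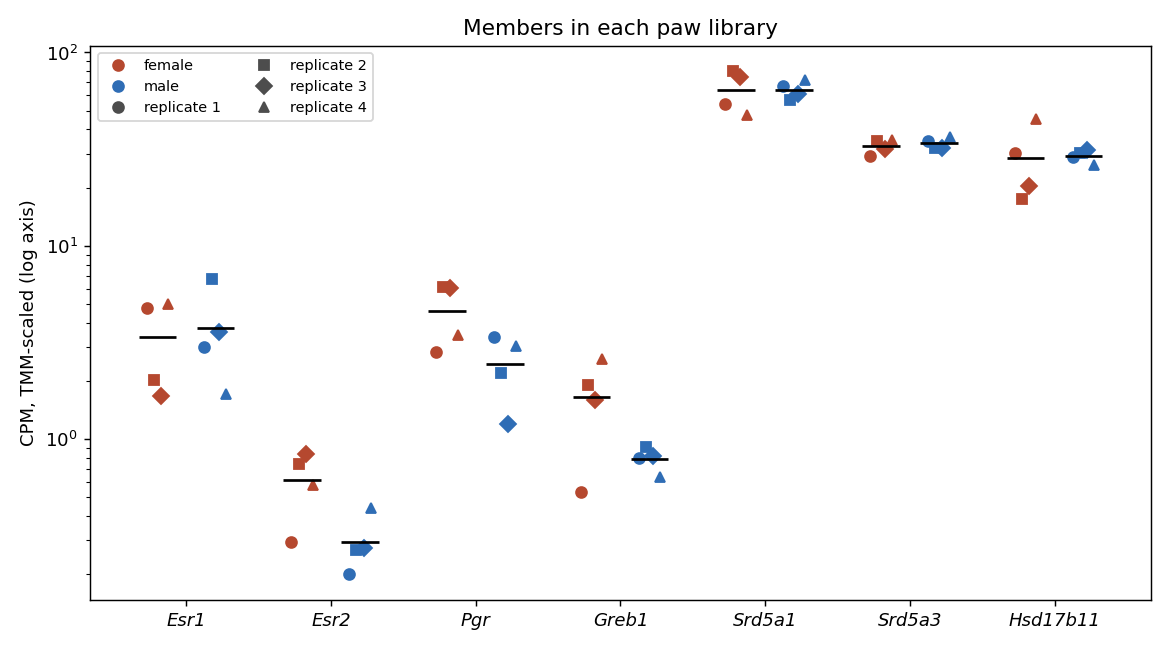
CPM of the 7 members (vertical log axis, TMM-scaled) in each of 4 female (red, left of each pair) and 4 male (blue) paw libraries, with marker shape giving the replicate and black bars the mean. The enzymes lie between 17.5 and 80.1 CPM and the receptor genes and Greb1 between 0.199 and 6.73 CPM, and for every member the sexes overlap.

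Neither estrogen receptor gene differed between females and males at an adjusted p under 0.05. Esr1 stood at 4.76, 2.03, 1.67 and 5.02 CPM in female replicates 1 to 4, against 2.99, 6.73, 3.60 and 1.71 CPM in male replicates 1 to 4. Within each sex the highest library held about 3 times or more the CPM of the lowest, and the sexes overlapped throughout. The means were 3.37 ± 1.76 CPM over the 4 females, against 3.76 ± 2.13 over the 4 males (SD), a log2 fold change of -0.16 (edgeR SE 0.50, adjusted p = 0.999, 95% interval -1.29 to 0.98). As a ratio of female over male that interval reaches from 0.408 to 1.97, so that the data leave a wide range of differences possible in either direction.

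Esr2 was close to the counting limit. It had 5, 16, 19 and 15 counts in female replicates 1 to 4, against 4, 5, 5 and 9 counts in male replicates 1 to 4. Female replicates 2 to 4 lay above every male library and female replicate 1 among them. Scaled to library size, 55 female against 23 male counts gave a ratio of 2.13 (95% exact conditional binomial interval 1.29 to 3.63, counting error only). Over libraries, at 0.612 ± 0.237 CPM over the 4 females, against 0.295 ± 0.103 over the 4 males (SD), the two-sided exact permutation test gave p = 0.0571, where 0.0286 is the smallest p that 4 against 4 allows. In a fit without the low-count filter its log2 fold change was 1.05 (SE 0.43, edgeR unadjusted p = 0.0357, adjusted p = 0.842).

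Pgr and Greb1, both known targets of the estrogen receptor in reproductive tissue, had mean levels about 2-fold apart, but neither passed the test across all genes. Pgr stood at 2.82, 6.10, 6.04 and 3.43 CPM in female replicates 1 to 4, against 3.39, 2.19, 1.20 and 3.03 CPM in male replicates 1 to 4. Female replicates 2 and 3 stood apart at the top, and female replicate 1 lay below male replicates 1 and 4. The log2 fold change was 0.90 (SE 0.38, 95% interval 0.04 to 1.77), with an unadjusted p of 0.0418 and an edgeR adjusted p of 0.749. The means were 4.60 ± 1.72 CPM over the 4 females, against 2.45 ± 0.975 over the 4 males (SD).

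Greb1 had the largest difference of the members tested. It stood at 0.529, 1.89, 1.59 and 2.59 CPM in female replicates 1 to 4, against 0.797, 0.908, 0.818 and 0.636 CPM in male replicates 1 to 4. Female replicates 2 to 4 were above all males, and female replicate 1 was the lowest of the 8 libraries, with 9 counts. The means were 1.65 ± 0.855 CPM over the 4 females, against 0.790 ± 0.113 over the 4 males (SD), a log2 fold change of 1.07 (SE 0.43, 95% interval 0.10 to 2.05, edgeR adjusted p = 0.743). The spread in females was 51.9% of the mean, against 14.3% in males. Without female replicate 1 the log2 fold change was 1.35 (unadjusted p = 0.00113, edgeR adjusted p = 0.347), and without female replicate 4 it was 0.77 (unadjusted p = 0.111, edgeR adjusted p = 0.716).

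Among the females, replicate 1 was the lowest for all 3 of Esr2, Pgr and Greb1. Over the 8 libraries Pearson's r of log2 CPM was 0.73 between Esr2 and Pgr (exact permutation p = 0.0359, adjusted p = 0.199 over 21 member pairs), with Spearman's rho 0.71 (permutation p = 0.0576). It was 0.73 between Esr2 and Greb1 (permutation p = 0.0487, adjusted p = 0.205; rho 0.52) and 0.53 between Pgr and Greb1 (permutation p = 0.175; rho 0.57). Without the 2 libraries farthest from the median the 3 values of r were 0.73, 0.62 and 0.46. Within males the first was 0.04 and the other two were negative, at -0.74 and -0.41, against 0.90, 0.80 and 0.51 within females; with 4 libraries a sex these are descriptions. None of the 3 relations passed the adjustment.

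The enzymes had nearly equal means in the sexes. Srd5a1 stood at 54.4, 80.1, 75.0 and 47.2 CPM in female replicates 1 to 4, against 67.1, 56.7, 61.0 and 72.0 CPM in male replicates 1 to 4. Females held both the 2 highest and the 2 lowest libraries. Its means were 64.2 ± 15.9 CPM over the 4 females, against 64.2 ± 6.71 over the 4 males (SD; log2 fold change 4.6e-05, edgeR adjusted p = 0.99996), and the 95% interval of the log2 fold change ran from -0.40 to 0.40.

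Srd5a3 was the steadiest member, varying 1.25-fold between the lowest and the highest of the 8 libraries. It stood at 29.3, 34.7, 31.8 and 35.2 CPM in female replicates 1 to 4, against 34.9, 32.0, 32.2 and 36.5 CPM in male replicates 1 to 4. The libraries of the sexes interleaved. The log2 fold change was -0.05 (SE 0.09, 95% interval -0.25 to 0.15, edgeR adjusted p = 0.999), so that the interval spans 0.842-fold to 1.11-fold.

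Hsd17b11 stood at 30.1, 17.5, 20.4 and 45.5 CPM in female replicates 1 to 4, against 28.9, 30.3, 31.3 and 26.1 CPM in male replicates 1 to 4. The male libraries lay close together and inside the female range, with female replicate 4 far above and female replicates 2 and 3 below all males. The means were 28.4 ± 12.6 CPM over the 4 females, against 29.1 ± 2.27 over the 4 males (SD), a log2 fold change of -0.04 (SE 0.28, 95% interval -0.67 to 0.60, edgeR adjusted p = 0.999). The coefficient of variation was 44.5% in females and 7.79% in males, a difference in spread that was not tested.

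Across the members, edgeR called 0 of 6 tested at an adjusted p under 0.05, where 0.0947% of all 14790 tested genes were called. DESeq2 called 0 of 6 (0.757% of all tested genes) and limma-voom 0 of 6 (0.108%). At an unadjusted p under 0.05, 2 of 6 members, Pgr and Greb1, were higher in females, where 4.08% of all tested genes were and 6.53% were in either direction. These unadjusted p-values depended on the setting: Pgr was under 0.05 in 11 of 19 alternatives and Greb1 in 8 of the 18 that gave it a value. With limma-voom p was 0.0443 for Pgr and 0.0904 for Greb1, and with the replicate block edgeR gave 0.121 and 0.0987. Neither gene was under 0.05 without female replicate 2, female replicate 3, male replicate 2 or male replicate 3. Over libraries, the two-sided exact permutation test on CPM gave p = 0.114 for Pgr and 0.143 for Greb1. The members were chosen with earlier results of these data known, so no conclusion is drawn from the 2 of 6. For 0 of 7 members, Esr2 included though it was not among the tested genes, did the libraries of the sexes separate without overlap. This held for 4.71% of all tested genes.

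**Figure D2:**
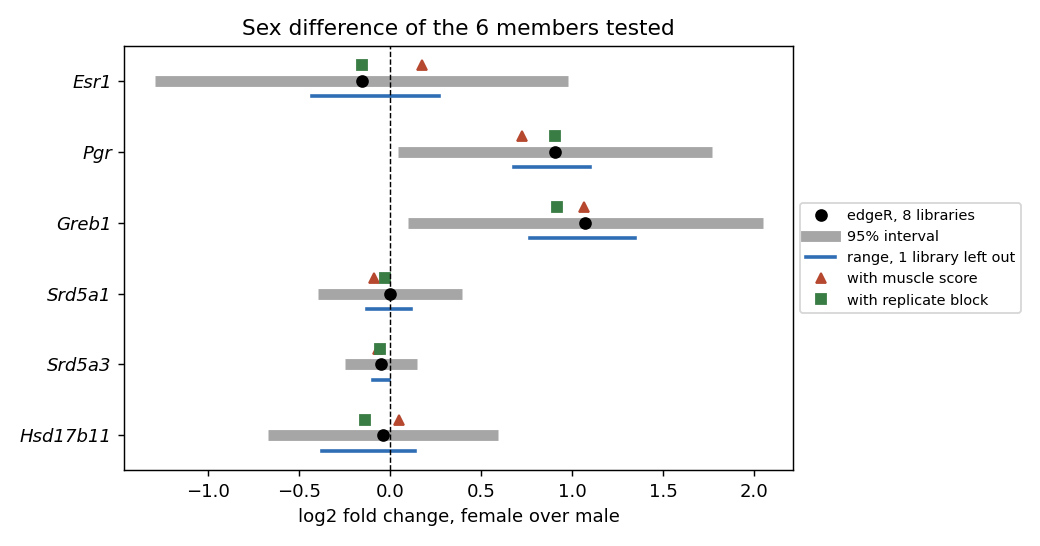
Log2 fold change of female over male (horizontal axis) for the 6 members tested, with the 95% interval (grey), the range over 8 fits that leave out 1 library (blue) and the value with the muscle score as a covariate (triangle) or with a replicate block (square). Pgr and Greb1 lie right of 0 in all of these fits, between 0.68 and 1.35, while the values of the other 4 members lie between -0.43 and 0.27.

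Esr1, Srd5a1 and Hsd17b11 varied among libraries together with tissue markers. Each member's log2 CPM was set against the mean log2 CPM of 6 marker lists, 42 relations in all, with exact permutation p-values adjusted by Benjamini-Hochberg. The macrophage list was added after seeing the data. All values share library and scaling, so that more RNA of one cell type lowers the CPM of the rest.

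Esr1 was higher in libraries with more muscle transcript. Its log2 CPM followed the fast muscle score (r = 0.84, permutation p = 0.00243, adjusted p = 0.0255; rho = 0.93, adjusted permutation p = 0.0469), and r was 0.86 without female replicate 3 and male replicate 2, the ends of the muscle range. It also followed the endothelial score (r = 0.87, adjusted permutation p = 0.0369; rho = 0.86, adjusted p = 0.0900) and ran against the keratinocyte score without passing (r = -0.82, adjusted permutation p = 0.0825). Within the sexes r with muscle was 0.81 in females and 0.997 in males (4 libraries each). Whether the receptor transcript lies in muscle fibres or in cells that come with them was not tested.

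Srd5a1 followed keratinocyte markers. Its r with the keratinocyte score was 0.91 (permutation p = 0.000942, adjusted p = 0.0198; rho = 0.79, adjusted permutation p = 0.130), and 0.81 without female replicates 1 and 4, the libraries poorest in keratinocyte markers. It ran against the endothelial score (r = -0.94, adjusted permutation p = 0.0198; rho = -0.95, adjusted p = 0.0469) and the fibroblast score (r = -0.86, adjusted permutation p = 0.0324). With the macrophage score r was -0.86 (adjusted permutation p = 0.0301) and rho -0.81 (adjusted permutation p = 0.130). The keratinocyte relation held in each sex, with r of 0.98 in females and 0.96 in males (4 libraries each).

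Hsd17b11 followed fibroblast, endothelial and macrophage markers. Its r was 0.95 with the fibroblast score (permutation p = 0.00141, adjusted p = 0.0198; rho = 0.88, adjusted permutation p = 0.0760), 0.95 again without female replicates 3 and 4, and 0.95 with the macrophage score (adjusted permutation p = 0.0271; rho = 0.76, adjusted p = 0.140). With the endothelial score r was 0.85 (adjusted permutation p = 0.0271) and rho 0.90 (adjusted permutation p = 0.0639). The fibroblast relation was 0.96 in females and 0.84 in males, whereas the macrophage relation was 0.96 in females and 0.13 in males (4 libraries each). The endothelial relation was 0.99 in females and 0.53 in males. Srd5a1 and Hsd17b11 ran opposite to each other (r = -0.93, permutation p = 0.000273, adjusted p = 0.00573 over 21 member pairs; rho = -0.90, adjusted permutation p = 0.0958; r = -0.80 without female replicates 2 and 4). Esr1 and Srd5a1 had r = -0.87 (adjusted permutation p = 0.0695; rho = -0.86). How much of these 3 members' variation comes with tissue makeup was not tested.

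**Figure D3:**
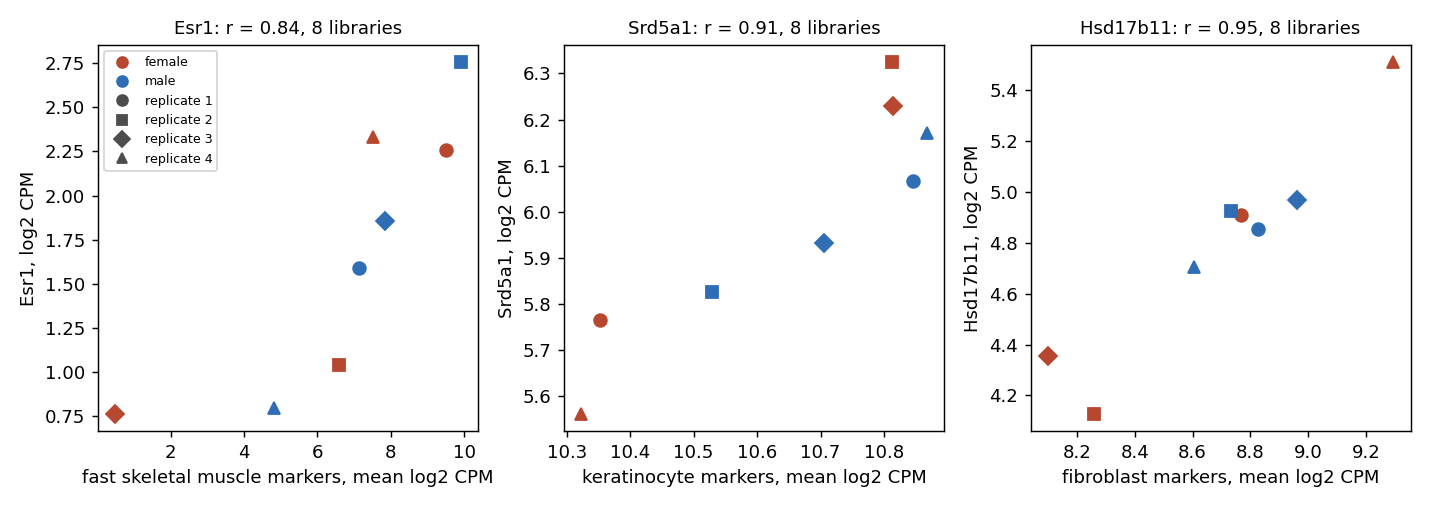
Log2 CPM of Esr1, Srd5a1 and Hsd17b11 (vertical axes) against the mean log2 CPM of fast muscle, keratinocyte and fibroblast markers (horizontal axes) in 8 libraries, red for females and blue for males, with marker shape giving the replicate. The points rise together in all 3 panels (r = 0.84, 0.91 and 0.95).

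Pgr, Greb1, Esr2 and Srd5a3 had no relation with a marker score that passed the adjustment. Srd5a3 had r between -0.25 and 0.46 with the 6 scores. Greb1 had r between -0.32 and 0.01. Esr2 and Pgr ran against muscle (r = -0.68 and -0.59, adjusted permutation p = 0.165 and 0.306). With the fast muscle score added to the model, the log2 fold change of female over male was 1.06 for Greb1, 0.72 for Pgr and 0.17 for Esr1 (edgeR adjusted p = 0.541, 0.571 and 0.923).

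**Figure D4:**
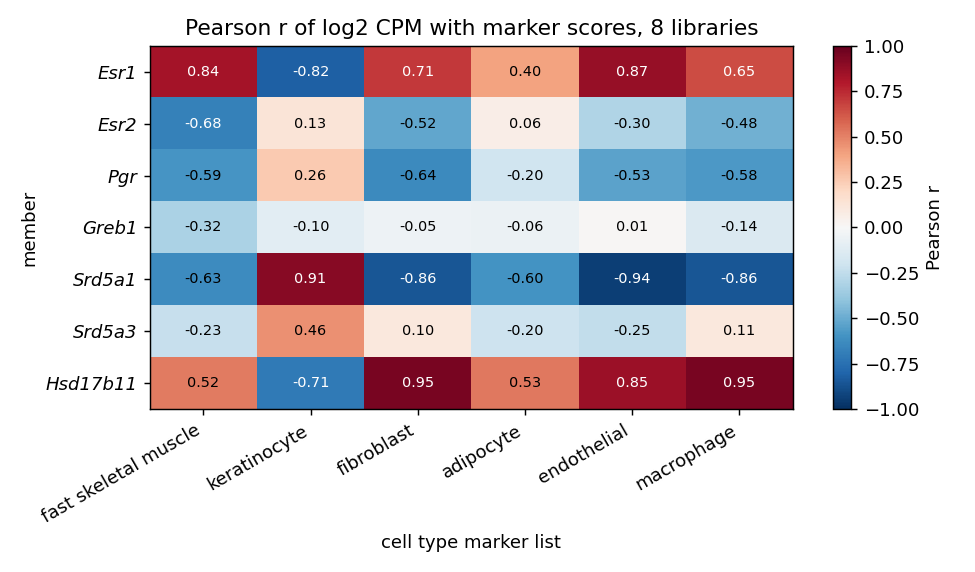
Pearson's r over 8 libraries between each member's log2 CPM (rows) and the mean log2 CPM of 6 cell type marker lists (columns), printed in each cell and coloured from -1 (blue) to 1 (red). Srd5a1 and Hsd17b11 show rows of opposite sign, Esr1 has the signs of Hsd17b11, and Srd5a3 and Greb1 stay between -0.32 and 0.46.

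The genes most like each member were picked from 11905 genes with at least 5 CPM by Pearson's r over 8 libraries, a description without a test. Nearest to Esr1 were Epdr1 (r = 0.99), Smad3, a transducer of TGF-beta signals (0.99), and Synpo, an actin-binding protein (0.99). Nearest to Srd5a1 were Tjp3, a tight junction protein (0.99), Rassf7 (0.99) and Rapgefl1 (0.99). Nearest to Hsd17b11 were Entpd1, an ectonucleotidase (0.99), Mrc1, the macrophage mannose receptor (0.98), and Pi16 (0.98), a gene of fibroblasts. Thg1l, Api5 and Dctn4 came closest to Pgr (0.95 to 0.96). For Greb1 they were 2610524H06Rik, 1110004F10Rik and Ube2e3 (0.92 to 0.94), and for Srd5a3 2210016F16Rik, Parp11 and Nlrc5 (0.91 to 0.92).

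Other receptor genes did not pass the test between the sexes either. Nr3c1, the glucocorticoid receptor gene, stood at 169.5 ± 28.9 CPM over the 4 females, against 149 ± 23.8 over the 4 males (SD; edgeR adjusted p = 0.952). Nr3c2, the mineralocorticoid receptor gene, had 7.59 ± 3.65 CPM over the 4 females, against 8.04 ± 5.17 over the 4 males (edgeR adjusted p = 0.999), with its highest value, 15.6 CPM, in male replicate 2, as for Esr1. Gpr30, the former symbol of the G protein-coupled estrogen receptor gene, stood at 2.33 ± 0.689 CPM over the 4 females, against 2.05 ± 0.504 over the 4 males (edgeR adjusted p = 0.999).

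Of 9 nuclear steroid receptor and related genes 7 were tested, 3 above and 4 below 0, with a median log2 fold change of -0.07, against 0.01 over all tested genes, and edgeR called 0. Across all 12 lists described from here on, edgeR, DESeq2 and limma-voom called 0 unless a call is named. The count at an unadjusted p under 0.05 in edgeR is also given, where 6.53% of all tested genes were. It was 1 in this list. Values in brackets after a gene are its log2 fold change of female over male and SE. Of 7 membrane steroid receptors tested 3 lay above 0 (median -0.03, 0 called, 1 unadjusted). Paqr7, a membrane progestin receptor, had the smallest p of these, at 167 ± 35.4 CPM over the 4 females, against 110 ± 31.2 over the 4 males (SD; log2 fold change 0.59, SE 0.22, edgeR adjusted p = 0.699). Pgrmc1 followed (-0.09, SE 0.08, edgeR adjusted p = 0.986). Of 17 receptor coregulators 10 lay above 0 (median 0.05, 0 called, 3 unadjusted). The acetyltransferase gene Crebbp (0.24, SE 0.08) and the coactivator gene Ncoa3 (0.19, SE 0.07) had the smallest p there (edgeR adjusted p = 0.667 and 0.669). Their libraries did not overlap between the sexes, which held for 4.71% of all tested genes.

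Receptor chaperones lay below 0 in 8 of 9 cases (median -0.11), and edgeR called 0 (2 unadjusted). Fkbp5, a co-chaperone that androgens and glucocorticoids induce, stood at 19.6 to 25.2 CPM in the female libraries, against 28.8 to 35.4 in the male ones, without overlap, a log2 fold change of -0.57 with SE 0.11 (edgeR adjusted p = 0.179). DESeq2 called it. Stip1 (-0.17, SE 0.07, edgeR adjusted p = 0.758) came next. Of 12 androgen response genes tested, Fkbp5 among them, 8 lay above 0 (median 0.11, 0 called by edgeR, 4 unadjusted), with Abcc4, a drug and steroid conjugate transporter, at 0.27 (SE 0.07, edgeR adjusted p = 0.509). The libraries of Abcc4 did not overlap between the sexes either. Of 16 estrogen response genes 9 lay above 0 (median 0.01, 0 called, 2 unadjusted), and the pair of smallest p were the members Greb1 and Pgr.

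Steroid-making genes did not pass the test between the sexes. Of 17 listed genes of synthesis from cholesterol 10 were tested, 5 on each side of 0 (median -0.0038, 0 called, 0 unadjusted). Cyp17a1, the hydroxylase and lyase of androgen synthesis, stood at 13.2 ± 4.81 CPM over the 4 females, against 9.68 ± 1.57 over the 4 males (SD; log2 fold change 0.45 with SE 0.26, edgeR adjusted p = 0.859), and Por, which supplies it with electrons, had -0.10 (SE 0.07, edgeR adjusted p = 0.893). Cyp19a1, the aromatase gene that makes estrogen from androgen, had 0 counts in every female library and 1 count in all males together.

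Of 13 hydroxysteroid dehydrogenases of the 17-beta group 9 were tested, 3 above and 6 below 0 (median -0.09, 0 called, 2 unadjusted). Hsd17b2, which inactivates estradiol and testosterone, stood at 4.33 ± 1.03 CPM over the 4 females, against 6.42 ± 1.54 over the 4 males (SD; -0.57, SE 0.24, edgeR adjusted p = 0.750). Hsd17b7, which also serves cholesterol synthesis, stood at 168 ± 49.9 CPM over the 4 females, against 231 ± 24.4 over the 4 males (-0.46, SE 0.20, edgeR adjusted p = 0.761).

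The one gene of these lists that edgeR called was in the list of steroid reductases and 3-alpha enzymes. Of 10 tested steroid reductases and 3-alpha enzymes 6 lay above 0 (median 0.18, 3 unadjusted), and edgeR called 1, Akr1c21, a hydroxysteroid dehydrogenase. It stood at 70.6, 79.9, 94.8 and 51.1 CPM in female replicates 1 to 4, against 21.1, 21.3, 16.0 and 24.4 CPM in male replicates 1 to 4. The log2 fold change was 1.84 (SE 0.20, edgeR adjusted p = 0.0167). All female libraries lay above all male ones, whereas for Srd5a1, Srd5a3 and Hsd17b11 the sexes overlapped. Limma-voom and DESeq2 called Akr1c21 too, and DESeq2 also called its paralog Akr1c18 (higher in females, edgeR adjusted p = 0.363) and Dhrs9, a retinol and steroid dehydrogenase gene (lower in females, edgeR adjusted p = 0.391); both are named after their values were seen. The Akr1c genes are close copies, and reads placed at more than 1 site are not counted, so the level of each is uncertain. Srd5a2, the other classical testosterone reductase, had 0 counts in every library.

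Of 7 tested genes of sulphation and glucocorticoid interconversion 1 lay above 0 (median -0.15, 0 called, 1 unadjusted). Hsd11b1, which regenerates active glucocorticoid, had 6.56 ± 2.72 CPM over the 4 females, against 11.1 ± 1.37 over the 4 males (SD; -0.76, SE 0.28, edgeR adjusted p = 0.699), and Sult2b1, a cholesterol sulphotransferase of epidermis, had -0.18 (SE 0.14, edgeR adjusted p = 0.931). Of 22 genes of dolichol and early N-glycan assembly, the pathway of Srd5a3, 10 lay above 0 (median -0.01, 0 called, 0 unadjusted), with Alg3 (-0.21, SE 0.11) and Dpm2 (0.10, SE 0.07) of smallest p. Of 21 tested lipid droplet genes, the compartment of Hsd17b11, 9 lay above 0 (median -0.04, 0 called, 1 unadjusted), with Bscl2, the seipin gene (-0.19, SE 0.07), and Mgll, a monoglyceride lipase gene (-0.18, SE 0.13), of smallest p.

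**Figure D5:**
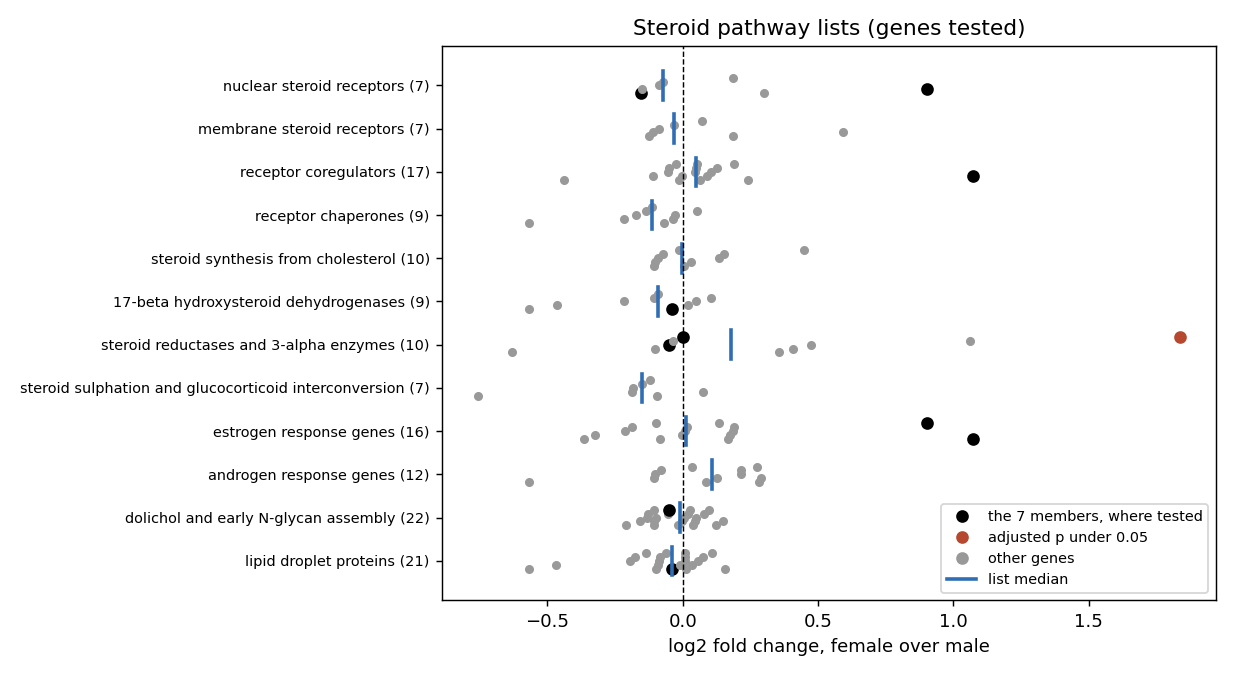
Log2 fold change of female over male (horizontal axis) for the tested genes of 12 steroid-related lists (rows, number tested in brackets), with the 7 members in black where tested, the gene with an edgeR adjusted p under 0.05 in red and the list median as a blue line. List medians lie between -0.15 and 0.18, and Akr1c21 at 1.84 lies farthest from 0.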

How the data were processed

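The authors deposited raw read counts per gene symbol, 1 table per library, with no normalization. Per the labels' protocols, libraries were poly(A)-selected and stranded, from about 500 ng RNA, and read as 50 bp single ends. Per the submitters' processing notes bcl2fastq, TopHat2, HTSeq and build mm9 were used; their versions, the annotation and the strand setting are not stated there. Summary lines naming no gene were left out (no feature, 18.0 to 21.1% of uniquely placed reads). Multiply placed reads are not in the counts, and their summary line held 45.2 to 48.7% of the total over all lines.

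Female over male was tested with edgeR 4.0.16 (R 4.3.3; filterByExpr, TMM, robust quasi-likelihood, sex as sole term), with p-values adjusted by Benjamini-Hochberg over all 14790 genes and calls at 0.05. SEs are the log2 fold change over the root of F. CPM are TMM-scaled; log2 CPM used a prior count of 0.5. Replicate pairs differed beyond sampling noise (chi-square per degree of freedom at least 13.2).

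Members and 12 pathway and 12 marker lists were chosen with earlier results of these data known. Named were the members, further receptor and enzyme genes (1 gene the rule names is not reported here), called or otherwise 2 smallest-p genes per pathway list, and the 3 genes most like each member above 1 CPM. Akr1c21 came in as a call, Srd5a2 and Sult1e1 after their values were seen. Alternatives were other size factors, DESeq2 1.42.0, limma-voom (limma 3.58.1), other filters, a non-robust fit, a replicate block, covariates and 1 library left out.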

Additional observations from a re-analysis of the deposited data

How the results depend on the processing

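No member was called under any of 19 alternatives. Genes called higher in females, 6 in all, became 57 with DESeq2, 2 with the replicate block, 11 with the fibroblast score as a covariate and 11 with the muscle score and female replicate 3 left out (the last pair chosen after seeing the data), and 2 to 7 with 1 library left out: 2 without male replicate 3 or 4 and 3 without male replicate 1. Genes called higher in males, 8 in all, became 55 with DESeq2, 5 with the replicate block and 13 with the fibroblast score, and 6 to 10 with 1 library left out. The cause was not tested. After each gene's mean within each sex was subtracted from log2 CPM, same-numbered libraries had correlations of -0.28, -0.13, -0.09 and -0.29. These are correlations of deviations, not of whole expression profiles. By this measure no female library correlated best with its own number, so the block pairs libraries by number alone. Under the block the log2 fold change was 0.91 for Pgr and 0.92 for Greb1.

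Pgr kept a positive log2 fold change under all 19 alternatives (0.68 without male replicate 3 to 1.10 without male replicate 1) and Greb1 under all 18 that gave it a value (0.77 to 1.35); Greb1 had none with at least 2 CPM required in 4 libraries. Srd5a3 stayed negative under all 19. Uncalled values near 0 changed sign. Esr1 (-0.16) had 0.17 with the muscle score, 0.037 with female replicate 3 left out as well, and -0.43 to 0.27 with 1 library left out. Hsd17b11 (-0.04) had 0.047, 0.061 and 0.054 with the muscle score, the muscle score without female replicate 3, and the fibroblast score, and -0.37 to 0.14 with 1 library left out. Srd5a1 (4.6e-05) had -0.0098 with DESeq2 size factors and with DESeq2, -0.013 with upper-quartile factors, -0.028 with limma-voom, -0.00025 without a filter, -0.028 with the block, -0.089 and -0.050 with the muscle score before and after leaving out female replicate 3, -0.14 with the fibroblast score, and -0.12 to 0.12 with 1 library left out. Counts were lowest for Esr2 and Greb1, at 4 to 19 and 9 to 67 per library. Whether depth or the spread between libraries limited their comparison more was not tested.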

Other observations

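Sult1e1, the sulphotransferase that inactivates estrogen, was singled out after its values were seen. It had 0 counts in each of the 4 female libraries, against 1, 3, 11 and 5 counts in male replicates 1 to 4. With 3 counts over the group as the floor for females and the 20 male counts taken as measured, the limit was 7.497-fold lower in females. This limit allows for counting error in the females only. It leaves out the spread between libraries, so a smaller difference remains possible. Male replicate 3 held 11 of the 20 male counts, and without it, an alternative chosen after seeing the data, the limit was 4.42-fold from 9 counts. Its libraries did not overlap between the sexes, which held for 4.71% of all tested genes, a set that Sult1e1 is not in. Without overlap the two-sided exact permutation test on CPM can only give p = 0.0286, the smallest that 4 against 4 allows. Because the gene was picked with these values known, no conclusion is drawn from that p. The gene was too low for the test across all genes. No adjustment was made for having picked it.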
